A study of Mus musculus with 12 samples.

Results

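Collagens other than those of basement membranes were followed through the fetal mouse testis as a gene family. The members are all genes of the platform annotation whose symbol is Col, a number, the letter a and a number, except the Col4a genes. Only probe sets assigned to a single gene were used, and where a gene had several, the brightest over the 12 arrays stands for it. The rule gave 36 genes, measured by 70 probe sets, out of 18193 genes on the array. They fall into 11 fibrillar collagens, 9 fibril-associated collagens, 6 of the beaded filament and anchoring fibril kind, 3 network collagens, 4 transmembrane collagens, 2 multiplexins and Col26a1. The rule used no difference between samples. Total RNA came from male genital ridges or testes of 129/Sv embryos, here called 129, and of 129.MOLF-Chr 19 embryos, here called M19, on embryonic days E13.5, E15.5 and E17.5. In M19 chromosome 19 of 129 is replaced by that of MOLF, and no embryo was described as treated. Each of the 6 groups has 2 arrays. According to the extraction notes 40 pairs of testes were pooled for 2 arrays, so a group's arrays may come from a single pool, in which case p-values reflect technical spread and not that between embryos.

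Collagens are proteins of the extracellular matrix built from a triple helix. Fibrillar collagens (types I, II, III, V, XI, XXIV and XXVII) form the tension-bearing fibrils, and type II is known as the collagen of cartilage, where types IX and XI accompany it. Fibril-associated collagens sit on the surface of fibrils, type VI forms beaded filaments around cells, type VII anchors epithelia to the matrix below them, network collagens (types VIII and X) form sheets, transmembrane collagens span the cell membrane, and multiplexins lie at the border of basement membranes. In the fetal testis, cords of Sertoli and germ cells are wrapped by peritubular cells and separated by an interstitium, and these stromal cells are known makers of matrix.

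Promoters of 5 members are shown, chosen with their values known and among the members matched in the promoter table. Those of Col2a1 and Col9a3 are not shown. The 5 are Col6a1 and its neighbour Col6a2, which both rose, Col25a1, the member with the greatest rise, Col1a2, a chain of the main fibril collagen, and Col17a1, the member on the substituted chromosome. Each line gives the 250 bases before the annotated start, 5′ to 3′ on the gene's strand, from the RefSeq promoter table of the mouse build GRCm38.p6. The first lies at chr10:76726045-76726294 (minus strand), the second at chr10:76623631-76623880 (minus, 1 of 2 listed starts), the third at chr3:130180595-130180844 (plus), the fourth at chr6:4505368-4505617 (plus) and the fifth at chr19:47692043-47692292 (minus). Capitals mark the CCAAT box (letters CCAAT), the TATA box (letters TATAAA) and the GC box (letters GGGCGG), each on either strand.
Col6a1: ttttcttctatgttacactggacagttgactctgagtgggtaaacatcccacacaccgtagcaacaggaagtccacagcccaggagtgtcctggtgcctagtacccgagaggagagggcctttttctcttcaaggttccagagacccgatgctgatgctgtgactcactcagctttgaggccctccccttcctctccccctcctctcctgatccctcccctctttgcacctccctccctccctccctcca
Col6a2: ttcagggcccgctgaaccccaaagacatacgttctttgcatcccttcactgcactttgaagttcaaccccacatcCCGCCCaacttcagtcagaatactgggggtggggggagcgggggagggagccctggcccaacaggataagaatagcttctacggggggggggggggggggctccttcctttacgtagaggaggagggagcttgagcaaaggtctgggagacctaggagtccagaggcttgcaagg
Col25a1: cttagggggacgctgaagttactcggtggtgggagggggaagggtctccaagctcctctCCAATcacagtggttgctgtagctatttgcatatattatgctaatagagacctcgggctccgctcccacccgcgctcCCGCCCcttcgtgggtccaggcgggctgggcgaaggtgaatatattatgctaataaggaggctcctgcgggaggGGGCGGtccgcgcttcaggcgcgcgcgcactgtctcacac
Col1a2: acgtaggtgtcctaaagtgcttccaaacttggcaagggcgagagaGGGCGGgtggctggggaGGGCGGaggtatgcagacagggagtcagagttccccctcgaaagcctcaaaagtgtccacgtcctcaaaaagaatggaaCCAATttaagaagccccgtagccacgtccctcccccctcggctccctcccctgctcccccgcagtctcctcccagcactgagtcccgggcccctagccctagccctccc
Col17a1: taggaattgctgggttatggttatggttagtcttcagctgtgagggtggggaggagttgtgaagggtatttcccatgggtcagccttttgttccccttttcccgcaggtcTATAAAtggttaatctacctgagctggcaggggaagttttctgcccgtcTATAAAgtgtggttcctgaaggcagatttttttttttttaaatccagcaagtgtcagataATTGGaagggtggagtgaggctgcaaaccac
The table held windows for 28 of the 36 members, 31 windows of 300 bases that include 50 bases after the start. CCAAT occurred in 32.3% of them, against 37.4% of all 32851 windows in the table, and TATAAA in 16.1% against 13.6%. GGGCGG occurred in 58.1% of the members' windows and in 35.7% of all windows. The Col6a1 window held none of the 3 motifs, and that of Col6a2 shown held 1 GGGCGG on the opposite strand and the other Col6a2 window 3. That of Col17a1 held TATAAA at -140 and -91 relative to the start and CCAAT on the opposite strand at -31. These matches are descriptions of letters and not measured binding.

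Signals are given as deposited, on what is taken as the log2 scale, where a difference of 1 is a doubling. Array medians ran from 8.10 to 8.27, and the highest belonged to 129 E13.5 replicate 1. The arrays of that group differed most in Col9a2 (10.84 and 10.06), Col11a2 (8.45 and 7.79), Col6a5 (6.64 and 5.76) and Col11a1 (9.17 and 9.68). Markers of testis cells (Sertoli, Leydig, peritubular, germ and other cells, 13 measured) had a mean log2 signal of 10.7 to 11.9 on all 12 arrays. The 129 E15.5 arrays stood apart in markers of other tissues. The mean of 9 skin epithelium markers was 10.51 and 10.54 there and 8.03 to 8.47 on the 10 other arrays. The mean of 11 skeletal muscle markers was 8.91 and 8.99 against 7.72 to 8.19, that of 5 tendon markers 9.18 and 9.27 against 7.62 to 8.16, and that of 11 cartilage markers 8.00 and 8.11 against 7.70 to 7.83. The 4 bone markers did not set these arrays apart, at 8.06 and 8.07 against 7.84 to 8.16. No marker was listed at 0 on any array, and which cells or RNA these signals come from was not tested. For this reason the stage changes below rest on E13.5 and E17.5 and the E15.5 arrays are described separately. In such whole-tissue samples fewer cells of a type and less RNA per cell cannot be told apart.

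**Figure D1:**
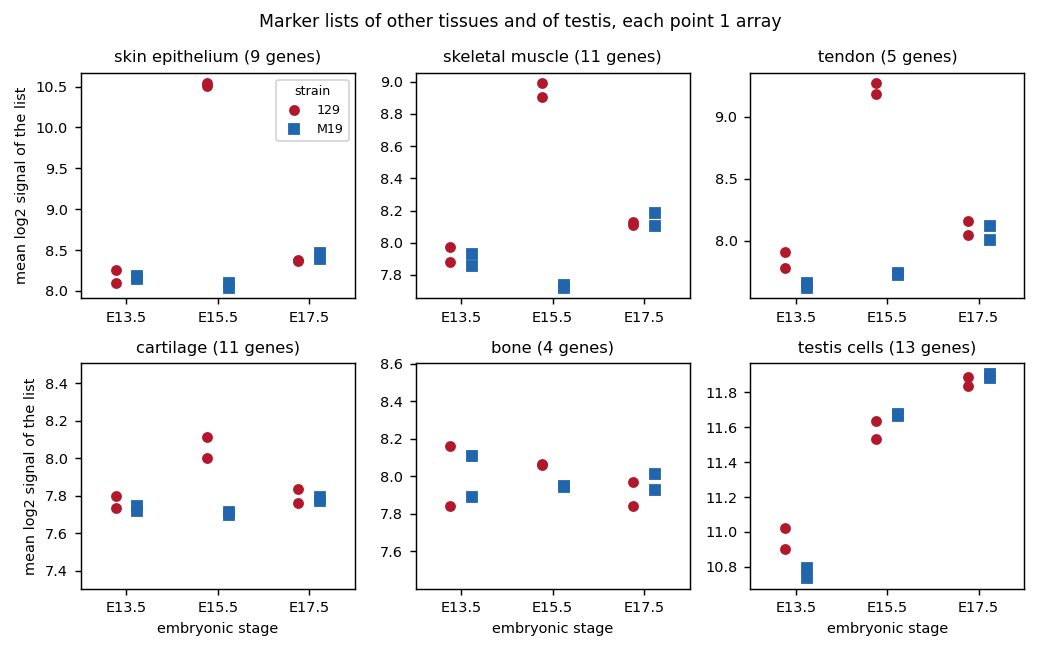
Mean log2 signal of each marker list (y axis) on each array by embryonic stage (x axis); red circles are 129, blue squares M19, 2 arrays per group. Skin, muscle, tendon and cartilage lists are highest on both 129 E15.5 arrays, and the testis list is highest at E17.5 in both strains.

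Between E13.5 and E17.5 the family rose more often than it fell. Averaged over both strains, limma called 16 of the 36 members higher and 5 lower at E17.5 (Benjamini-Hochberg adjusted p under 0.05 over all probe sets). Among all 18193 genes 16.3% were called higher and 10.9% lower, so 44.4% of members against 16.3% is a larger share, while 13.9% against 10.9% is close to the background. The median difference of the members was 0.24, against 0.06 over all genes. The rises were in fibrillar, type VI and transmembrane collagens and in Col12a1 and Col15a1, the falls in 2 fibrillar and 2 fibril-associated members and in Col26a1. Without both 129 E15.5 arrays in the fit 15 rose and 5 fell, Col23a1 being the call that was lost (adjusted p = 0.054), and without 129 E13.5 replicate 1 the counts were 16 and 6. With the mean of a gene's probe sets in place of the brightest, 12 rose and 8 fell, and 17 of these calls were shared with the 21. Lost were the rises of Col1a2, Col3a1, Col5a2 and Col12a1 (limma adjusted p = 0.097, 0.63, 0.073 and 0.33), which thus depend on the choice of probe set. The testis marker list moved over the same interval, with 9 of 13 markers higher and 1 lower, led by the smooth muscle gene Myh11 (2.64) and the steroid synthesis genes Star (2.48), Cyp11a1 (2.30) and Cyp17a1 (2.02). So did 3 of 11 muscle markers (Myh3 0.89). Thbs4 rose among 5 tendon markers (1.56), Perp among 9 skin markers (1.45) and Alpl among 4 bone markers (0.41). Of 11 cartilage markers 2 rose (Cnmd 1.17) and 3 fell (Hapln1 -0.84). In 129 alone the list medians over this interval were -0.03 for muscle, 0.05 for tendon, 0.06 for skin and -0.20 for bone. There 1 tendon marker was called lower. The part of these markers in the collagen changes was not tested.

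**Figure D2:**
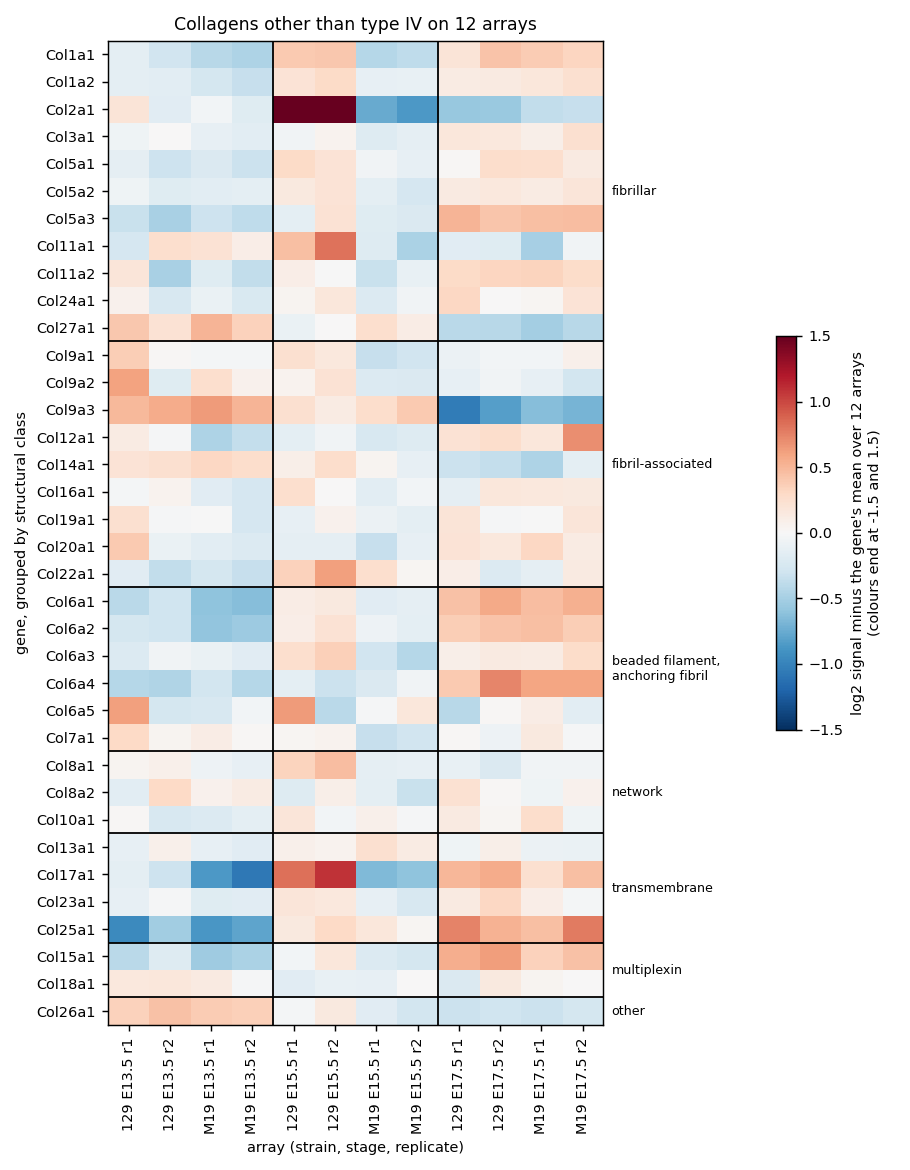
Each of the 36 collagens (y axis, by class) on each of the 12 arrays (x axis), as log2 signal minus the gene's mean over the arrays; red is above and blue below that mean, with colours ending at -1.5 and 1.5. The columns of 129 E15.5 hold the darkest red fields, Col2a1 and Col17a1, and the E17.5 columns are red for Col6a1, Col6a2 and Col6a4 and blue for Col9a3.

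Of the 11 fibrillar collagens, 7 rose from E13.5 to E17.5, 2 fell and 2 did not pass the test. Both chains of type I collagen, the main collagen of stroma, rose. Col1a1 read 12.96 and 12.83 in 129 at E13.5, 13.501 and 13.508 at E15.5 and 13.30 and 13.54 at E17.5, and in M19 12.69 and 12.64, 12.68 and 12.73, and 13.49 and 13.44 at the same stages. The E17.5 arrays lay above every E13.5 array in both strains, and the rise was 0.66 ± 0.08 (SE, 4 arrays per stage; adjusted p = 0.00022, 1.58-fold). The Col1a2 values of 129 were 13.66 and 13.64 at E13.5, 14.01 and 14.10 at E15.5 and 13.94 and 13.94 at E17.5, and those of M19 were 13.55 and 13.46, then 13.69 and 13.70, then 13.97 and 14.04. Col1a2, the partner chain, rose by 0.40 (adjusted p = 0.003). A second Col1a1 probe set differed by 0.11 and did not pass, while of the other Col1a2 sets one rose by 0.44 and one did not pass (-0.33). In the order E13.5, E15.5 and E17.5, Col3a1 stood at 13.98 and 14.05, 13.98 and 14.08, and 14.21 and 14.20 in 129 and at 13.91 and 13.88, 13.85 and 13.90, and 14.12 and 14.28 in M19. Type III collagen, which shares fibrils with type I, rose by 0.25 (adjusted p = 0.04), a small change that its other probe set did not show (-0.15).

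Type V collagen, which starts and thins type I fibrils, rose in all 3 chains. Col5a1 read 11.98 and 11.81 in 129 at E13.5, 12.41 and 12.32 at E15.5 and 12.13 and 12.39 at E17.5, and in M19 11.90 and 11.79, 12.06 and 12.00, and 12.37 and 12.26 at the same stages. The Col5a2 values of 129 were 11.81 and 11.70 at E13.5, 12.02 and 12.08 at E15.5 and 12.02 and 12.04 at E17.5, and those of M19 were 11.72 and 11.73, then 11.73 and 11.62, then 12.00 and 12.06. In the order E13.5, E15.5 and E17.5, Col5a3 stood at 7.52 and 7.37, 7.71 and 8.07, and 8.37 and 8.27 in 129 and at 7.54 and 7.47, 7.68 and 7.64, and 8.30 and 8.32 in M19. Col5a3 rose most, by 0.84 ± 0.09 (adjusted p = 0.0001), although it is among the 7 members whose mean lies below the median of all probe sets, 8.17. Col5a1 rose by 0.41 and its other probe sets by 0.47 and 0.42, and Col5a2 by 0.29. Second probe sets of Col5a3 (0.29) and Col5a2 (0.09) did not pass. Col11a2 read 8.45 and 7.79 in 129 at E13.5, 8.37 and 8.26 at E15.5 and 8.56 and 8.59 at E17.5, and in M19 8.09 and 7.90, 7.94 and 8.16, and 8.60 and 8.55 at the same stages. Col11a2, a chain of type XI, rose by 0.52 (adjusted p = 0.016) with replicates far apart in 129 at E13.5.

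Col27a1 and Col2a1 fell. The Col27a1 values of 129 were 10.84 and 10.66 at E13.5, 10.34 and 10.44 at E15.5 and 10.03 and 10.02 at E17.5, and those of M19 were 10.94 and 10.79, then 10.69 and 10.55, then 9.92 and 10.02. Col27a1, a fibrillar collagen known from developing cartilage, stood lower on each later pair of arrays in both strains. It fell by 0.81 ± 0.08 over the whole interval (adjusted p = 6.2e-05), and its second probe set fell by 0.82. Col2a1 fell by 0.41 (adjusted p = 0.0095), and its course at E15.5 is described with the strains. Col11a1 (-0.31) and Col24a1 (0.26) did not pass, while the second Col11a1 probe set fell by 0.66 (adjusted p = 0.0078). Leaving out 1 array at a time, the calls of Col1a1, Col1a2, Col5a1, Col5a3, Col27a1 and Col2a1 held in all 12 fits. Col11a2 was lost without M19 E13.5 replicate 2, 129 E17.5 replicate 2 or M19 E17.5 replicate 1 (adjusted p up to 0.072), Col5a2 without either M19 E13.5 array or replicate 2 of either E17.5 group (up to 0.071), and Col3a1 in 9 of 12 fits (up to 0.14), all but those without 129 E13.5 replicate 2 or either 129 E15.5 array.

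**Figure D3:**
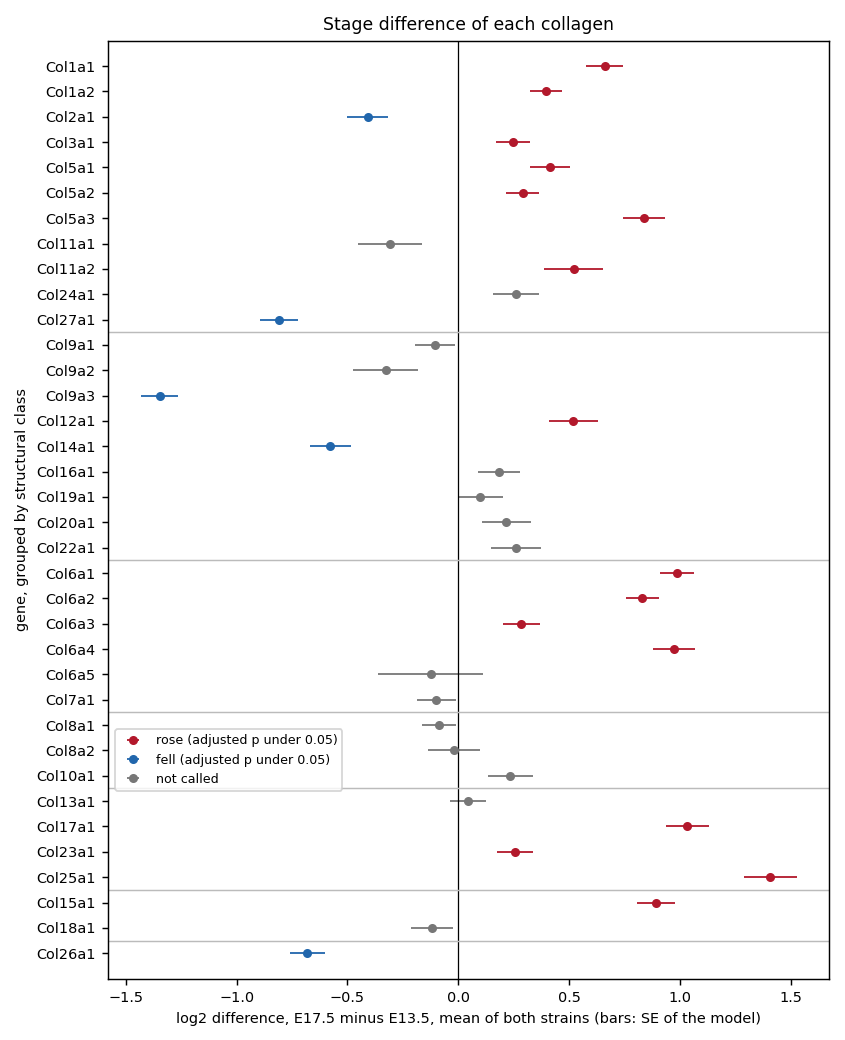
Difference between E17.5 and E13.5 averaged over both strains (x axis, log2, points with the model's SE) for each collagen (y axis), grouped by class. Red members rose and blue members fell at an adjusted p under 0.05; Col25a1 lies farthest to the right at 1.41 and Col9a3 farthest to the left at -1.35.

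Fibril-associated collagens were split. Of 9, Col9a3 and Col14a1 fell, Col12a1 rose and 6 did not pass. Col9a3 read 11.18 and 11.25 in 129 at E13.5, 10.93 and 10.82 at E15.5 and 9.65 and 9.87 at E17.5, and in M19 11.33 and 11.21, 10.97 and 11.09, and 10.05 and 10.00 at the same stages. Col9a3, a chain of type IX collagen, lay on all 4 E17.5 arrays below every earlier array. It fell by 1.35 ± 0.08 (adjusted p = 1.3e-06), 2.55-fold, and its other probe sets fell by 1.63 and 1.15. For the other chains of type IX the values were smaller. Col9a2 differed by -0.33 and Col9a1 by -0.10, neither past the threshold, although a second Col9a1 probe set fell by 0.87 (adjusted p = 0.00012). The Col14a1 values of 129 were 10.66 and 10.71 at E13.5, 10.55 and 10.73 at E15.5 and 10.14 and 10.10 at E17.5, and those of M19 were 10.77 and 10.73, then 10.50 and 10.34, then 10.00 and 10.31. Col14a1, which binds the surface of type I fibrils, fell by 0.58 (adjusted p = 0.0012), and its other probe sets did not pass (-0.22 and -0.34). In the order E13.5, E15.5 and E17.5, Col12a1 stood at 10.30 and 10.16, 10.04 and 10.12, and 10.40 and 10.45 in 129 and at 9.71 and 9.83, 9.94 and 9.99, and 10.35 and 10.88 in M19. Col12a1, a close relative of Col14a1, rose by 0.52 (adjusted p = 0.0071) by its representative, but a second probe set fell by 0.74 (adjusted p = 0.01), so the direction of Col12a1 depends on the probe set. The remaining members, Col16a1, Col19a1, Col20a1 and Col22a1, differed by 0.10 to 0.26 and did not pass. The calls of Col9a3, Col14a1 and Col12a1 held in each of the 12 fits without 1 array.

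Type VI collagen rose in 4 of its 5 measured chains. This collagen forms filaments around cells from the chains of Col6a1, Col6a2 and a further chain. Col6a1 read 12.35 and 12.45 in 129 at E13.5, 12.86 and 12.89 at E15.5 and 13.19 and 13.32 at E17.5, and in M19 12.14 and 12.11, 12.58 and 12.62, and 13.21 and 13.29 at the same stages. The Col6a2 values of 129 were 12.77 and 12.73 at E13.5, 13.13 and 13.25 at E15.5 and 13.40 and 13.46 at E17.5, and those of M19 were 12.43 and 12.49, then 12.96 and 12.88, then 13.48 and 13.41. In both strains each later pair of arrays lay above the earlier pair. Col6a1 rose by 0.99 ± 0.08 (adjusted p = 6.2e-06, 1.98-fold) and Col6a2 by 0.83 ± 0.07 (adjusted p = 2.1e-05). The genes are neighbours on chromosome 10, Col6a2 at chr10:76595756-76623630 and Col6a1 at chr10:76708792-76726044, 85161 bases apart, and the second Col6a2 probe set rose by 0.99. In the order E13.5, E15.5 and E17.5, Col6a3 stood at 11.22 and 11.38, 11.68 and 11.79, and 11.51 and 11.56 in 129 and at 11.33 and 11.26, 11.14 and 11.01, and 11.55 and 11.71 in M19. Col6a3, the usual further chain, rose by only 0.28 (adjusted p = 0.031). Col6a4 read 7.33 and 7.30 in 129 at E13.5, 7.61 and 7.44 at E15.5 and 8.15 and 8.48 at E17.5, and in M19 7.48 and 7.33, 7.54 and 7.70, and 8.35 and 8.35 at the same stages. Col6a4, an alternative to it with a dim probe set, rose by 0.97 ± 0.10 (adjusted p = 4.1e-05), mostly after E15.5, while its second probe set did not pass (0.13). Its neighbour on chromosome 9, Col6a5, differed by -0.13 with wide replicates and did not pass, nor did Col7a1, the anchoring fibril collagen (-0.10). The calls of Col6a1, Col6a2 and Col6a4 held in each of the 12 fits without 1 array, and that of Col6a3 was lost without either M19 E13.5 array, either 129 E17.5 array or M19 E17.5 replicate 2 (adjusted p up to 0.12).

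Transmembrane collagens held the largest rise of the family. Col25a1 read 8.99 and 9.42 in 129 at E13.5, 10.09 and 10.25 at E15.5 and 10.69 and 10.47 at E17.5, and in M19 9.07 and 9.16, 10.12 and 9.97, and 10.39 and 10.72 at the same stages. Col25a1, a collagen best known from neurons and muscle innervation, rose by 1.41 ± 0.12 (adjusted p = 1.3e-05), 2.65-fold, with the greater part before E15.5 in both strains. Its second probe set differed by 0.27 (adjusted p = 0.17) and did not pass. The Col17a1 values of 129 were 6.87 and 6.72 at E13.5, 7.85 and 8.11 at E15.5 and 7.52 and 7.58 at E17.5, and those of M19 were 6.16 and 5.95, then 6.36 and 6.42, then 7.26 and 7.47. Col17a1, a component of the hemidesmosomes of epithelia, rose by 1.03 ± 0.10 (adjusted p = 2.6e-05) between E13.5 and E17.5, on a dim probe set. In the order E13.5, E15.5 and E17.5, Col23a1 stood at 8.95 and 9.05, 9.26 and 9.23, and 9.21 and 9.39 in 129 and at 8.88 and 8.91, 8.95 and 8.83, and 9.17 and 9.05 in M19. Col23a1 rose by 0.26 (adjusted p = 0.043), with E13.5 and E17.5 arrays that overlap, and its other probe sets rose by 0.41 and 0.55. The Col23a1 call was lost in 10 of the 12 fits without 1 array (adjusted p up to 0.14), all but those without 129 E13.5 replicate 2 or 129 E17.5 replicate 1. Col13a1 differed by 0.05 and did not pass.

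Col15a1, a multiplexin found between basement membranes and stroma, rose. Col15a1 read 9.91 and 10.11 in 129 at E13.5, 10.27 and 10.49 at E15.5 and 10.86 and 10.94 at E17.5, and in M19 9.78 and 9.84, 10.11 and 10.05, and 10.66 and 10.75 at the same stages. Its E17.5 arrays were above every other array in both strains, and the rise was 0.89 ± 0.09 (adjusted p = 3.5e-05), 1.86-fold. Col18a1, the other multiplexin and the source of endostatin, differed by -0.12 by its representative, while its second probe set fell by 0.47 (adjusted p = 0.0018). The Col26a1 values of 129 were 10.75 and 10.83 at E13.5, 10.37 and 10.55 at E15.5 and 10.08 and 10.10 at E17.5, and those of M19 were 10.78 and 10.76, then 10.22 and 10.12, then 10.08 and 10.14. Col26a1, a collagen first described in testis and ovary, fell by 0.68 ± 0.08 (adjusted p = 0.00012), with most of the M19 fall before E15.5 (-0.60) and a dim second probe set that did not pass (-0.12). The 3 network collagens did not pass over this interval, with differences of -0.09 for Col8a1, -0.02 for Col8a2 and 0.24 for Col10a1. Of other neighbouring members, Col3a1 and Col5a2 on chromosome 1 lie 24624 bases apart and rose by 0.25 and 0.29, and Col9a1 and Col19a1 lie 4944 bases apart with -0.10 and 0.10. Calls of Col15a1, Col17a1, Col25a1 and Col26a1 held in all 12 fits without 1 array.

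**Figure D4:**
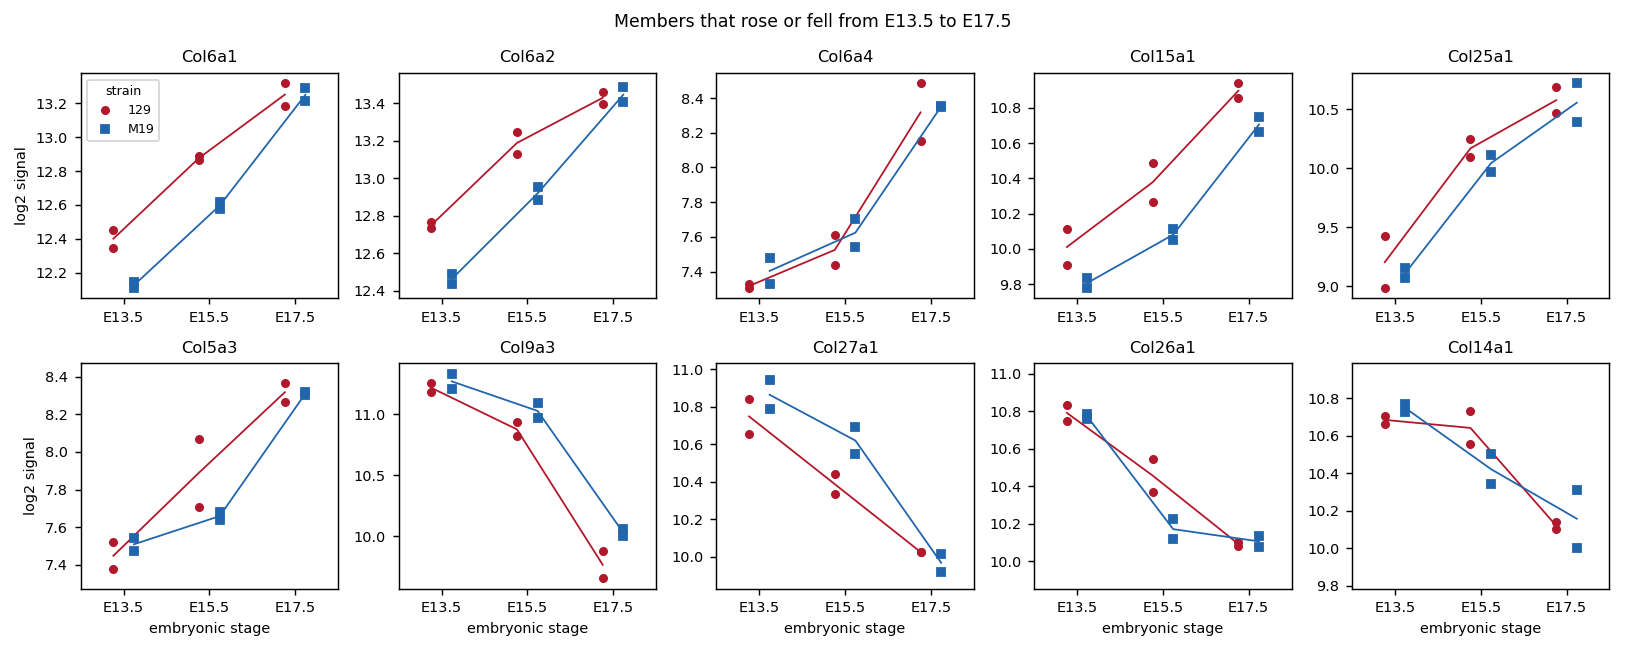
Log2 signal (y axis) of 10 members that rose or fell between E13.5 and E17.5 against embryonic stage (x axis); red circles are 129 and blue squares M19, each point 1 array, and lines join group means. Col6a1, Col6a2, Col15a1 and Col25a1 climb in both strains, and Col9a3 drops after E15.5.

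Within each strain the interval from E13.5 to E17.5 gave 8 rises and 5 falls in 129, where 6.9% of all genes rose and 4% fell, and 11 rises and 4 falls in M19, where 10.2% rose and 5.26% fell. Called in both strains were the rises of Col1a1, Col5a3, Col6a1, Col6a2, Col6a4, Col15a1, Col17a1 and Col25a1 and the falls of Col9a3, Col14a1, Col26a1 and Col27a1. Col1a2 (0.50 in M19, 0.29 in 129), Col5a1 (0.47 and 0.36) and Col12a1 (0.84 and 0.20) were called in M19 alone, and the fall of Col2a1 in 129 alone (-0.57, against -0.24 in M19). A call in a single strain does not show that the strains differ. When the difference of the intervals was itself tested, 0 of 36 members passed in limma, where 0.0165% of all genes were called higher and 0% lower. At an unadjusted p under 0.05 there were 2, Col12a1 (M19 minus 129 0.65) and Col17a1 (0.56), the share of all genes not being counted. Col12a1 in M19 was lost without M19 E13.5 replicate 1 (adjusted p = 0.064) and Col17a1 in 129 without 129 E17.5 replicate 2 (adjusted p = 0.051). Of the other calls, Col1a1, Col2a1 and Col14a1 in 129 and Col1a2, Col5a1 and Col14a1 in M19 were each lost in 2 to 6 of the 12 fits without 1 array, the array left out being of the same strain (adjusted p up to 0.25).

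The steps were uneven in time. In M19, whose E15.5 arrays had the lowest skin and muscle marker means of the 12, 3 members rose and 2 fell from E13.5 to E15.5, and 8 rose and 2 fell from E15.5 to E17.5. Over all genes 5.74% rose and 1.66% fell in the first step, and 1.45% rose and 1.79% fell in the second. The share of members rising in the second step, 22.2%, was above the background, and that in the first, 8.33%, was nearer to it. Col6a1 (0.47, then 0.65) and Col6a2 (0.46, then 0.53) passed in both steps. Col25a1 (0.93) rose and Col26a1 (-0.60) and Col2a1 (-0.69) fell in the first. Col1a1 (0.76), Col5a3 (0.65), Col6a3 (0.56), Col6a4 (0.73), Col15a1 (0.62) and Col17a1 (0.97) rose and Col9a3 (-1.0) and Col27a1 (-0.65) fell in the second. Markers moved in the second step too: 4 of 11 muscle markers were higher, led by Myh8 (1.16) and Myh3 (0.98). Perp was higher among 9 skin markers (1.36) and Thbs4 among 5 tendon markers (1.09). Of 13 testis markers 3 were higher and 1 lower. The M19 muscle mean was 7.72 and 7.74 at E15.5, and over both strains 8.10 to 8.19 at E17.5. In the first step 6 testis markers were higher, 1 muscle marker was lower, and 1 cartilage marker was higher and 2 lower, and the part of these markers was not tested in either step. The counts rest on few arrays: the first step had 0 calls when an M19 E13.5 array was left out and 1 when an M19 E15.5 array was, and the second had 1 or 2 without an M19 E15.5 array, 3 without an M19 E17.5 array and 6 without an M19 E13.5 array. Col9a3 was called in each of the 12 fits without 1 array, and Col17a1 was lost without M19 E15.5 replicate 1 (adjusted p = 0.071).

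In 129 the first step held 7 rises and 0 falls, against 4.46% and 1.84% of all genes. They were Col2a1 (1.81), Col17a1 (1.19), Col25a1 (0.97), Col22a1 (0.75), Col1a1 (0.61), Col6a1 (0.48) and Col6a2 (0.44). Col22a1 read 8.07 and 7.87 in 129 at E13.5, 8.59 and 8.85 at E15.5 and 8.34 and 8.03 at E17.5, and in M19 7.97 and 7.90, 8.49 and 8.26, and 8.10 and 8.38 at the same stages. Col22a1, a collagen of the junction between muscle and tendon, was raised in its representative, whereas its other probe sets differed by 0.07 and 0.01. The second step held 1 rise, Col6a4 (0.79), and 3 falls, Col2a1 (-2.39), Col9a3 (-1.11) and Col8a1 (-0.56), against 1.18% and 1.24% of all genes. Both steps use the 129 E15.5 arrays that stood apart in markers of other tissues. In the first step the calls of Col2a1 and Col17a1 held in each of the 12 fits without 1 array and that of Col6a2 in 0 of them (adjusted p up to 0.19). Col6a1 was lost in 7 (up to 0.13), Col22a1 without 129 E13.5 replicate 2 or 129 E15.5 replicate 2 (up to 0.14), Col1a1 without either 129 E15.5 array (up to 0.066) and Col25a1 without 129 E15.5 replicate 2 (0.057), which left 2 calls there. The second step also had 2 calls without 129 E15.5 replicate 2 or 129 E17.5 replicate 2, where Col6a4 was lost (up to 0.16), and Col8a1 was lost in 6 fits (up to 0.20).

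At E15.5 several collagens differed between the M19 and the 129 arrays. The comparison shares the 129 E15.5 arrays with both steps of 129. Those arrays stood apart in markers of other tissues, so a strain effect and that feature of the arrays cannot be told apart here. Limma called 0 members higher and 4 lower in M19, Col2a1, Col17a1, Col1a1 and Col6a3, where 0.148% of all genes were called higher and 0.533% lower. At an unadjusted p under 0.05 there were 16, but the share of all genes at that threshold was not counted. The difference was negative for 31 of the 36 members and positive for 5, with a median of -0.27 against 0.01 over all genes. It was negative for 10 of 11 fibrillar members, 8 of 9 fibril-associated, 5 of 6 beaded or anchoring and all 3 network members. All members were read on the same arrays, so these signs are not independent. For the 6 basement membrane collagens of the Col4a family the median difference was 0.04, with 0 called by limma and 1 at an unadjusted p under 0.05. Both 129 E15.5 arrays lay above all 10 other arrays in 5 members, Col2a1, Col11a1, Col8a1, Col17a1 and Col22a1, and below them in 0, while 1.89% and 1.64% of all genes did so.

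Col2a1 read 8.79 and 8.43 in 129 at E13.5, 10.42 and 10.42 at E15.5 and 8.03 and 8.04 at E17.5, and in M19 8.55 and 8.41, 7.84 and 7.73, and 8.22 and 8.25 at the same stages. Its 129 E15.5 values lie above all others, and the M19 arrays of that stage lie below all others. The M19 mean was lower by 2.63 ± 0.13 (SE, 2 arrays per strain; adjusted p = 4.9e-06), 6.2-fold. At E13.5 the same difference was -0.13 and at E17.5 0.20, neither called. Among the partners of type II collagen in cartilage, Col11a1 differed by -0.97 (adjusted p = 0.088) and -1.04 (adjusted p = 0.059) in its 2 probe sets. Col9a1 differed by -0.52 in its representative and was lower by 1.41 in the other set (adjusted p = 0.00073). Col9a3 (0.15), Col9a2 (-0.34), Col11a2 (-0.27) and Col10a1 (-0.03), the last a collagen of hypertrophic cartilage, did not pass. Of 11 cartilage markers 2 were lower in M19, Acan (-1.08) and Matn4 (-1.05).

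**Figure D5:**
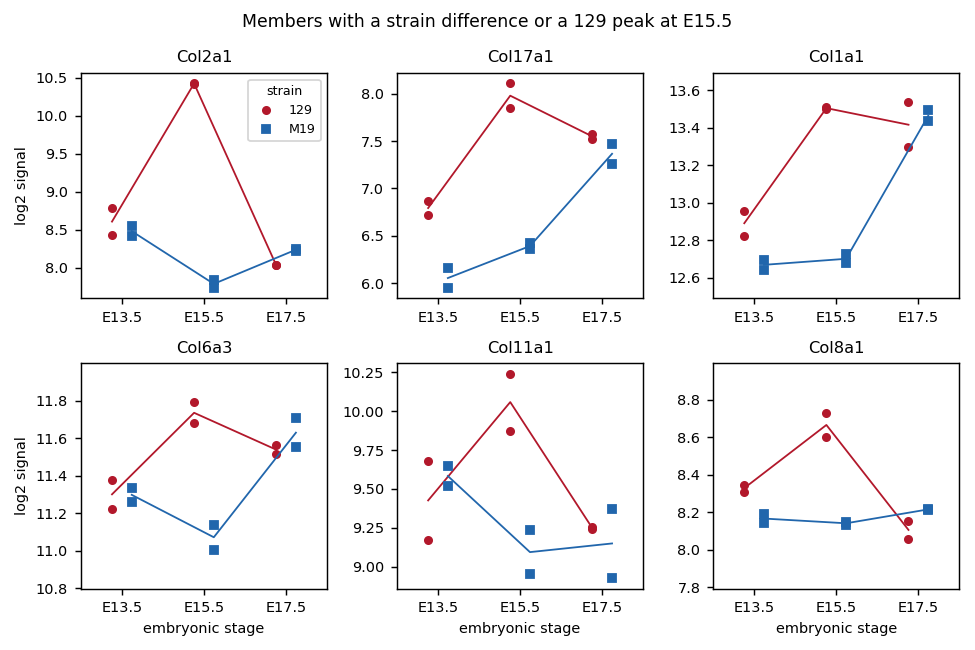
Log2 signal (y axis) of 6 members against embryonic stage (x axis); red circles are 129 and blue squares M19, each point 1 array, and lines join group means. In each panel the 129 mean is highest at E15.5, and at E17.5 the strains lie closer together than at E15.5.

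Col17a1 lay lower in M19 than in 129 at E15.5 by 1.59 ± 0.14 (adjusted p = 0.00022), 3.01-fold. Its gene is the sole member on chromosome 19, at chr19:47646341-47692042, which M19 has from MOLF. The difference was -0.74 at E13.5 (adjusted p = 0.21), with both M19 arrays below both 129 arrays, and -0.18 at E17.5. Averaged over E13.5 and E17.5 it was -0.46 (adjusted p = 0.23). Skin epithelium, the textbook site of Col17a1, had 8 of 9 markers lower in M19 at E15.5, led by Perp (-4.05), Krt1 (-3.65), Krtdap (-3.30) and Krt15 (-3.11).

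Col1a1 was lower in M19 at E15.5 by 0.80 ± 0.12 (adjusted p = 0.01), 1.74-fold, and Col6a3 by 0.66 ± 0.12 (adjusted p = 0.035). For both genes the M19 arrays of that stage lay below the 129 arrays. That order was found in most members, and its share over all genes was not counted. The second Col1a1 probe set differed by -0.17, and Col1a2 by -0.36 (adjusted p = 0.29). The Col8a1 values of 129 were 8.31 and 8.35 at E13.5, 8.60 and 8.73 at E15.5 and 8.15 and 8.06 at E17.5, and those of M19 were 8.19 and 8.14, then 8.13 and 8.15, then 8.22 and 8.21. Col8a1, a network collagen of vessel walls and the cornea, differed by -0.52 (adjusted p = 0.068) and in a second probe set was lower by 0.90 (adjusted p = 0.0031). In the order E13.5, E15.5 and E17.5, Col11a1 stood at 9.17 and 9.68, 9.88 and 10.24, and 9.25 and 9.24 in 129 and at 9.64 and 9.52, 9.24 and 8.95, and 8.92 and 9.37 in M19. Its E15.5 arrays of 129 are the highest of the 12, with 1.95-fold between the strain means, but the replicates scatter widely. Besides skin, 7 of 11 muscle markers were lower in M19 (Actc1 -3.47, Myh3 -2.81) and 3 of 5 tendon markers (Kera -3.22, Tnmd -2.70), with 0 of 4 bone and 0 of 13 testis markers. The part of these markers in the collagen differences was not tested. Col2a1 and Col17a1 were called in all 12 fits without 1 array. Col1a1 was lost when any 1 of the 4 E15.5 arrays was left out (adjusted p up to 0.14), Col6a3 was lost in 10 of 12 fits (up to 0.32), all but those without a 129 E13.5 array, and the count was 2 on leaving out 1 E15.5 array of either strain and 7 on leaving out 1 129 E13.5 array.

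At the other stages the strains did not differ past the threshold in any member. At E13.5, 0 of 36 members were called higher and 0 lower by limma, with 4 at an unadjusted p under 0.05 (Col17a1, Col12a1, Col6a2 and Col6a1, each with a lower M19 mean), and over all genes 0% were called higher and 0.033% lower. Col6a1 differed by -0.27 and Col6a2 by -0.29. The median difference of the members at E13.5 was -0.10, and that over all genes was -0.06. The share of all genes at an unadjusted p under 0.05 was not counted. Of the skin, muscle, tendon, cartilage, bone and testis markers limma called 0 at E13.5 and 0 at E17.5, and an unadjusted p under 0.05 was found for 1 tendon and 3 testis markers at E13.5 and 1 testis marker at E17.5. At E17.5, 0 members were called in either direction and 0 had an unadjusted p under 0.05, where 0.055% of all genes were higher and 0.0385% lower. The E17.5 differences ran from -0.19 to 0.26. Averaged over E13.5 and E17.5, 0 members were called, with 2 at an unadjusted p under 0.05, Col17a1 and Col15a1 (-0.20), against 0.044% of all genes higher and 0.066% lower. A test of whether the strain difference changes between stages, an F test over both successive changes, called 2 members, Col2a1 (adjusted p = 0.00014) and Col17a1 (adjusted p = 0.044), and 0.203% of all genes. The call of Col17a1 was lost in 10 of the 12 fits without 1 array (adjusted p up to 0.32), all but those without a 129 E13.5 array, and with the replicate number as a block (adjusted p = 0.06).

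Genes that make, bind and break down collagen were followed from lists. Of 29 measured genes for synthesis and crosslinking, 10 rose between E13.5 and E17.5 over both strains and 0 fell, with a median of 0.12 against 0.06 over all genes, of which 16.3% rose and 10.9% fell. Lox, the lysyl oxidase that crosslinks collagen, rose by 1.58 (adjusted p = 5.4e-07), Tll1, which trims procollagen, by 0.79, P4ha2, a prolyl hydroxylase subunit, by 0.75 and Loxl1 by 0.63. Lox was also the only one called between strains at E15.5, lower in M19 (-0.82, adjusted p = 0.015). Of 9 collagen receptors 3 rose, the integrin chains Itga10 (0.62) and Itga1 (0.54) and the receptor kinase Ddr1 (0.55), and Mrc2, which takes up collagen for degradation, fell by 0.46. Of 12 breakdown genes Mmp14, a membrane-bound collagenase, rose by 0.26, and Fap and Ctsk fell by 0.75 and 0.29. These shares of 8.33% and 16.7% stand beside 16.3% and 10.9% of all genes, and the list is too small to compare them. The basement membrane collagens, set beside the members for reference, had 5 of 6 genes higher at E17.5 and 1 lower. No receptor and no breakdown gene was called between the strains at E15.5.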

How the data were processed

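Total RNA of 12 samples (2 strains, 3 stages, 2 arrays per group) was hybridised to mouse whole-genome Affymetrix oligonucleotide arrays, per the labels. The deposited values, 1 per probe set and array, were taken as log2 signals from their range; how the authors normalized them is not given in the sources used here. They were used without further scaling. Array medians ran from 8.10 to 8.27, and some small differences lost their call with median centring, as given below. Of 45101 probe sets 64 controls were left out. Of the 45037 others, 34945 carried 1 gene in the platform annotation, 932 several and 9160 none. Limma 3.58.1 in R 4.3.3 fitted 6 group means to all probe sets and arrays (6 residual degrees of freedom, prior 4.82), and a difference is called where p, adjusted over all 45037 by Benjamini-Hochberg, is under 0.05. With 2 arrays per group, their number limits the precision. No share of all genes was counted for an unadjusted p under 0.05, or for arrays of compared groups that do not overlap. A run on simulated data served to check the code and is not used as support for any result. A difference that did not pass is not shown to be absent. Tables and figures were made with Python 3.11.15, pandas 2.3.3 and matplotlib 3.10.9. Gene positions are those of RefSeq on GRCm38.p6, and all 36 members matched. The members and lists were chosen with earlier results of these data known. Values are given on every array for members called in at least 1 comparison, and other listed genes are named only if called, up to 4 per list and comparison by size, or as markers of other tissues. Alternatives were quantile normalization, median centring, a filter on dim probe sets, trended and robust variance, the mean of a gene's probe sets, the compared groups alone, no 129 E15.5 arrays, a replicate block and leaving out each array.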

Additional observations from a re-analysis of the deposited data

Results flagged for a closer look

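The strain difference of Col2a1 changed between stages (limma F test, adjusted p = 0.00014): M19 minus 129 was -0.13 at E13.5, -2.63 at E15.5 and 0.20 at E17.5. That of Col17a1, the member on the substituted chromosome, did so too (adjusted p = 0.044), with -0.74, -1.59 and -0.18 at these stages, but its call was lost in 10 of the 12 fits without 1 array (adjusted p up to 0.32) and with the replicate number as a block (adjusted p = 0.06). That of Col2a1 held in all of these fits. Both tests use the 129 E15.5 arrays, which were high in skin, muscle, tendon and cartilage markers, and the part of those markers was not tested.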

How the results depend on the processing

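Counts of called members moved as follows. From E13.5 to E15.5 in 129 the 7 calls became 11 with quantile normalization and 2 with the compared groups alone, and in M19 the 5 became 3 with median centring and 8 with the compared groups alone. Median centring left 18 calls over both strains from E13.5 to E17.5, 13 rises and 5 falls. Lost were Col3a1, Col23a1 and Col6a3 (limma adjusted p = 0.09, 0.13 and 0.079). Between strains at E15.5 it left 3 calls, Col6a3 being lost (limma adjusted p = 0.064). With the compared groups alone there were also 2 between strains at E15.5, 2 in 129 from E15.5 to E17.5 and 6 in 129 from E13.5 to E17.5, the fit then holding 4 arrays. The mean of all probe sets gave 8 in 129 from E15.5 to E17.5, and turned Col12a1 to -0.10 in M19 and -0.11 over both strains from E13.5 to E17.5, its probe sets having opposite signs. The strain by stage test fell to 1 call with the filter on dim probe sets, which removes Col17a1. Leaving out 1 array at a time gave 2 to 7 calls between strains at E15.5, 1 to 2 in the strain by stage test, 16 to 22 over both strains from E13.5 to E17.5, 2 to 7, 2 to 6 and 9 to 13 in 129 for the first step, the second and both together, and 0 to 5, 1 to 13 and 11 to 18 in M19. Of 81 calls of a member in a comparison, 44 held in all fits without 1 array, 47 under all other alternatives, and 39 under both. For the other changes the cause was not tested. Without both 129 E15.5 arrays the E13.5 to E17.5 comparisons kept their counts but for 1 call.

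With the replicate number as a block the strain by stage test had 1 call, Col17a1 being lost (adjusted p = 0.06), with 20 calls over both strains from E13.5 to E17.5 and 6 in the first step of 129, and the other counts were as before. Deviations of same-numbered arrays correlated at -0.37 to 0.54 over 15 pairs of groups, 6 of them over 0.1, so the numbers were not taken to pair samples.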
